A study of Mus musculus with 2 samples.

Results

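The transcripts described here are spliced chains that the authors put in their class NIC, which holds chains whose splice sites are annotated but whose combination of sites is not. Members were chosen by their class and reads: a chain had to be NIC in both libraries, with the same chromosome, strand and exact series of introns, and with 2 or more reads in each. They number 2007 distinct intron chains of 21215 NIC chains seen in either library. The samples are 2 long-read RNA libraries of gastrocnemius, the large calf muscle, from male B6CASTF1/J mice aged 2 months, an F1 cross of C57BL/6J and CAST/EiJ, with 2 µg of total RNA per library. Both libraries belong to 1 untreated group with no other allele or agent named. The labels number the males differently but give them 1 donor identifier, so the spread between the libraries may be technical, and no condition was compared with another. Intervals below cover counting error only, since the reads carry no molecular identifiers.

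Splicing joins exons by pairing a donor site at the end of one exon with an acceptor site at the start of a later one. A gene makes several messages when exons are skipped or included, introns kept, sites moved, or transcription starts and ends at other exons. Skeletal muscle is known for such choices in genes of the contractile apparatus and calcium handling, many of them regulated by MBNL, CELF and RBFOX proteins. A long read spans most or all of a message, so it shows which distant choices occur together on 1 molecule. Each member was therefore compared with the annotated transcript of its gene that shares the most introns, and the difference was named by kind.

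The sequences that follow show the smallest differences, because these hold a large share of the member reads. They are reference bases of GENCODE M21 transcripts (build mm10, written 5′ to 3′ in the sense of the gene and limited to coding bases), not bases of the reads. Capitals mark the exon that the member skips (Tnni2, Tnni1, Phb2) or includes (Rilpl1, Dctn1), the bases that annotation leaves out and the member reads through (Oaz1, Oaz2), or the 3 bases between 2 acceptors (Srl, Ctbp1, Cast, Nfix). The marked parts lie at chr7:142442691-142442697 (+), chr1:135803282-135803285 (+), chr6:124716425-124716430 (+), chr5:124495899-124495922 (-), chr6:83187764-83187784 (+), chr10:80828292-80828295 (+), chr9:65686269-65686272 (+), chr16:4493878-4493880 (-), chr5:33248684-33248686 (-), chr13:74704203-74704205 (-) and chr8:84726603-84726605 (-) in the order given.
Tnni2: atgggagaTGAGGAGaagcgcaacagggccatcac
Tnni1: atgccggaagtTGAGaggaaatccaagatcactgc
Phb2: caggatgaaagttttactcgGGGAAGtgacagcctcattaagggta
Rilpl1: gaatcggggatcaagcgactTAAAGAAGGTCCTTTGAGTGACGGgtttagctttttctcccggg
Dctn1: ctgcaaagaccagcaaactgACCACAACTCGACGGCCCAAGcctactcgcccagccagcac
Oaz1: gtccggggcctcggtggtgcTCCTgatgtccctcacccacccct
Oaz2: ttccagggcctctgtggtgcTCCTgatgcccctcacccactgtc
Srl: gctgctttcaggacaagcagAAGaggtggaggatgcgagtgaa
Ctbp1: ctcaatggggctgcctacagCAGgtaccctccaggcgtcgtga
Cast: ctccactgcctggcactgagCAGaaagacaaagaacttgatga
Nfix: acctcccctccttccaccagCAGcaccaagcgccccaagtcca

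Member chains held 30210 reads in replicate 1 and 38378 in replicate 2. That was 2.67% (Wilson 95% interval 2.64 to 2.70) of 1132759 endogenous reads and 2.65% (2.62 to 2.67) of 1449423, a mean of 2.66% ± 0.0135 (SD, n = 2). Within the NIC class they held 68.7% and 65.2% of the reads, although most NIC chains, 16892 of 21215, were seen in 1 library only. Muscle fibre markers were all present, at 197631 and 176406 CPM (reads scaled by the library total over annotated genes) summed over 10 genes, and the 3 adipocyte markers had 0 reads in both libraries. The other marker lists were low, the highest being fibroblasts at 567 and 634 CPM over 4 genes. The median member had 4 and 6 reads, and 383 members had 10 or more in each library. Reads were concentrated, since the 20 most read members took 43.1% of member reads in replicate 1 and 36.1% in replicate 2.

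A chain with more reads was found again more often. Of NIC chains with 1 read in replicate 1, 25.2% were NIC chains in replicate 2 as well, against 66.7% of those with 2 to 4 reads and 86.5% of those with 5 to 9. Starting from replicate 2, the share was 49.2% with 2 to 4 reads and 80.7% with 5 to 9, and it was again lowest with 1 read. With 10 or more reads the share was 86.3% of 495 chains and 89.3% of 685. The 68 remaining chains of replicate 1 and 71 of the 73 remaining chains of replicate 2 were listed in the other library under another class, mostly as chains with an unannotated splice site (NNC). In all, 534 chains had 2 or more reads in each library but were NIC in only 1 of them, 440 of them NNC in the other. A chain of Ywhae, which encodes a 14-3-3 adaptor protein, was NIC with 305 reads in replicate 1 and NNC with 447 in replicate 2, and is no member for that reason.

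The label of the class went partly against the annotation. Although the class name calls all sites annotated, 255 members (12.7%) had at least 1 site that is in no GENCODE M21 transcript. They held 11.3% and 12.2% of member reads, and 252 of the 255 had all such sites in NNC models of both libraries. Members with every site in M21 numbered 1752. No member had the intron chain of an annotated transcript. The first donor was that of an annotated first exon and the last acceptor that of an annotated last exon in 93.5% of members, against 78.9% of 14165 NIC chains with a single read in all.

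**Figure D1:**
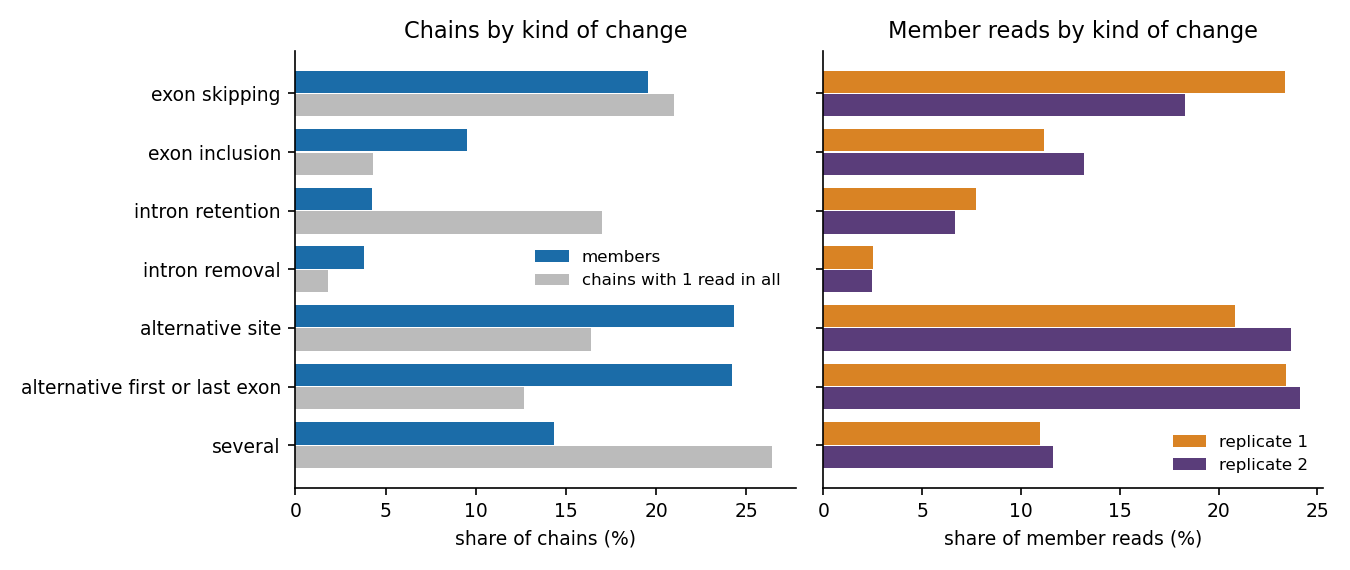
Left, the share of member chains (blue) and of NIC chains with 1 read in all (grey) in each kind of change, in percent; right, the share of member reads in each kind for replicate 1 (orange) and replicate 2 (purple). Members had fewer intron retentions (4.24% against 17.0%) and more alternative first or last exons (24.2% against 12.7%) than single-read chains.

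The kinds of change are counted against the transcript with the most shared introns. A moved donor or acceptor was the only kind of difference in 488 members, and an alternative first or last exon in 486. Exon skipping alone was found in 392 members, inclusion of an exon inside a reference intron in 191, intron retention in 85 and removal of an intron from within a reference exon in 76. In 288 members several kinds were combined, most often skipping with a moved site (79), and 1 chain with 2 reads in each library could not be sorted. Single-read chains, which are not independent of the members' definition, had another makeup: 17.0% retained an intron and 26.4% combined several kinds, against 4.24% and 14.3% of members. Which kind a member gets depends on the transcript it is set against. Against the most read annotated transcript of the gene, alternative sites were still the most numerous with 511 members, but exon skipping (410) and several kinds (404) outnumbered alternative first or last exons (311), and intron removals numbered 42.

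Most members were new orders of known junctions. In 1370 (68.3%) every exon junction was annotated and the order alone was not, and the other 637 carried 615 distinct new junctions. Of 1364 such members that could be tiled with introns of their own gene, 1152 (84.5%) consisted of 2 pieces of annotated chains joined end to end, 192 of 3 pieces and 20 of 4 or more. Among single-read chains of this sort, 75.5% needed 2 pieces. Genes with members had more annotated transcripts at each depth: among genes with 100 to under 1000 reads in the shallower library, the median was 8 transcripts for 342 genes with a member and 4 for 786 without. This contrast is not independent of the class, which is defined by combinations of annotated sites. Genes with a member also had more introns in the annotated transcript with the most, with medians of 9.5 and 6. Their reads were higher too, with medians of 211.5 and 171.5, and the part of either in this was not tested.

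The new junctions were mostly minor choices. A junction's use is the share of its reads among all reads over it and over annotated junctions that share one of its ends. Over 472 new junctions with at least 20 such reads in each library, the median use was 6.43% in replicate 1 and 5.70% in replicate 2. In 184 of them use was under 5% in both libraries and in 61 it was over 50% in both. The junctions of Idh3b (99.4% and 98.1%) and of Mpc1 (96.5% and 97.9%) were among those over 50%, and a 264-nt skip in Pdlim3, a Z-disc protein gene, stood at 5.52% (3.74 to 8.08) in replicate 1. The skip of a 118-nt exon in Mybpc2, the fast myosin-binding protein C, was used in 0.163% of reads there, with 10 reads against 6119.

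**Figure D2:**
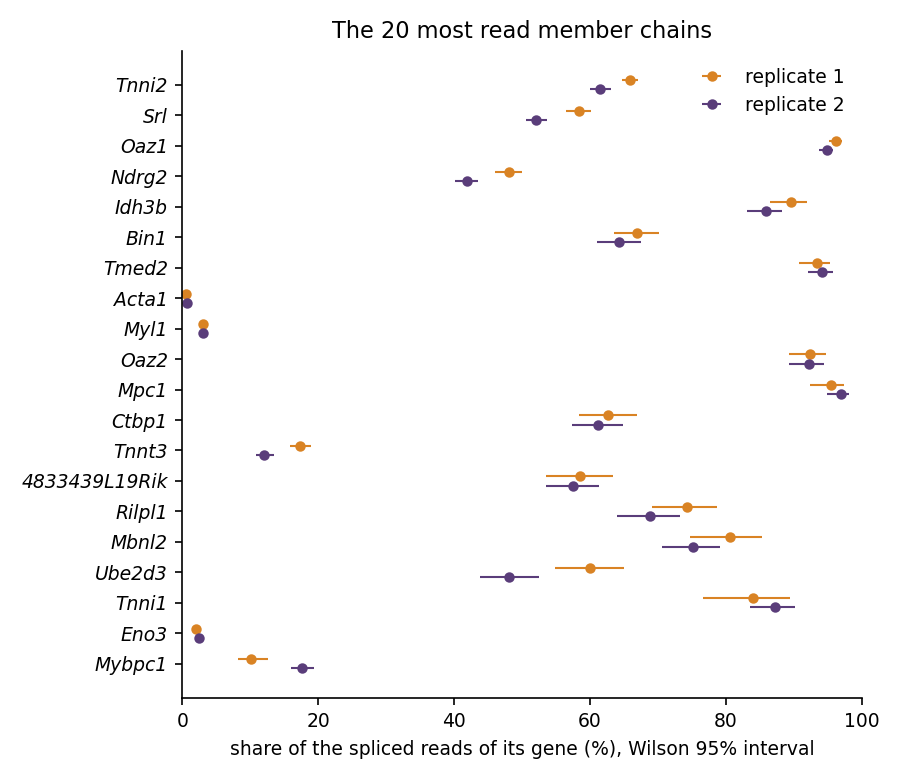
Share of the spliced reads of its gene (percent, x axis) held by each of the 20 most read member chains, with points for replicate 1 (orange) and replicate 2 (purple) and Wilson 95% intervals as bars. Oaz1, Tmed2, Oaz2 and Mpc1 lie above 92% in both libraries, and Acta1, Myl1 and Eno3 lie below 4%.

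Many members were not minor within their gene. For the 182 members with 20 or more reads in both, the median share of the gene's spliced reads was 26.6% and 26.9%. In 47 of them the share was 50% or more in both libraries, and in 5 it was 90% or more. These counts chose the members and are a description.

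The most read member of all belongs to Tnni2, which encodes the inhibitory troponin subunit of fast fibres. It lacked a 7-nt coding exon and had 4064 of 6166 spliced reads of the gene in replicate 1 and 2497 of 4058 in replicate 2, or 65.9% and 61.5%. The 7-nt exon was in 0 of 5573 reads that span it and in 0 of 3733, which allows a share of up to 0.0538% and 0.0804%. A member of Tnni1, the slow fibre counterpart, lacked a 4-nt exon and had 105 of 125 and 334 of 383 reads. Phb2, which encodes the mitochondrial scaffold protein prohibitin 2, had a member without a 6-nt exon with 114 and 185 reads. In Tnni1 and Phb2 the exon was again in 0 reads of either library. Phb2 and Dctn1 are named here after their values were seen.

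The absence of such exons was not particular to the members. Of 34 annotated internal exons of 1 to 10 nt with at least 20 spanning reads in each library, 34 were included in under 10% of reads in both, and the median inclusion was 0%. The exons of 11 to 20 nt had a median of 0% as well, with 73 of 87 under 10% and 9 over 90%. From 21 to 30 nt the median was 98.2% in replicate 2, and over 60 nt it was 100% in both. Of the same exons, 6 of the 34 and 19 of the 87 were skipped in a member. Whether the molecules lacked these exons, or the reads were aligned without them, was not tested. Only 6 members skip 1 exon of 10 nt or less and nothing else, but they held 14.5% and 8.21% of member reads.

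**Figure D3:**
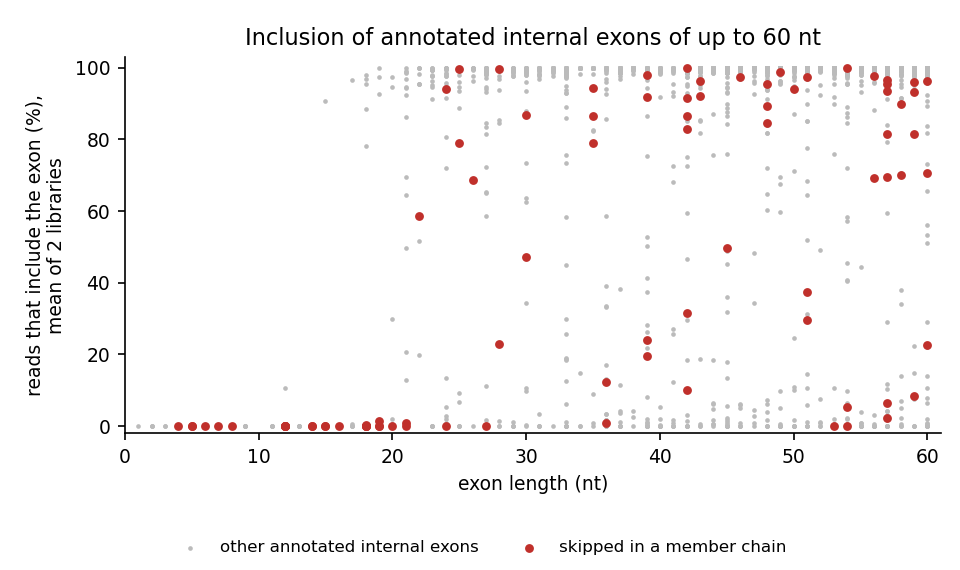
Percent of spanning reads that include an annotated internal exon, as the mean of the libraries (y axis), against exon length up to 60 nt (x axis), for exons skipped in a member (red) and for other exons (grey) with at least 20 spanning reads in each library. All 34 exons of up to 10 nt lie near 0, whereas most exons over 20 nt lie near 100%.

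Short exons were missing from members of the troponin T genes as well. Tnnt3, the fast troponin T gene, is known for combinatorial splicing of short exons near its 5′ end, and it had 13 members with 560 and 401 reads together. The leading one, with 402 of 2322 and 271 of 2247 spliced reads (17.3% and 12.1%), skipped exons of 14, 18, 18, 15, 12 and 19 nt, included a 62-nt exon and moved a donor by 4 nt. It has 2 new junctions, each with at least 1 site that is not in M21. The skipped exon of 12 nt was in 0 of 1656 and 0 of 1420 reads. Those of 18 nt were in at most 0.121% and 0.355%, and the one of 19 nt in 0.743% and 2.05%. Nearly all spanning reads of the gene lacked these exons, so the chain does not show joint skipping. Whether they were lost in alignment was not tested. Tnnt1, the slow gene, had a member without a 14-nt exon and with a donor moved by 12 nt, in 38 of 662 and 72 of 2411 reads. Its 14-nt exon was in 0 reads of either library.

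The skipped exons of members numbered 542, of which 47 (8.67%) had 30 nt or less, against 1.86% of 18034 annotated internal exons of the same genes. Lengths were a multiple of 3, which keeps the reading frame, in 51.8% (47.6 to 56.0) of the skipped exons, in 40.8% (40.1 to 41.5) of the annotated ones and in 44.4% (43.1 to 45.7) of those skipped by single-read chains. Among the skipped exons over 20 nt the share was 52.0%. The intervals of members and annotated exons do not overlap, but they treat exons as independent although some share a gene or chain, and no test was run. Inclusion could be scored for 427 skipped exons with 20 or more spanning reads in both. All 25 of them with 20 nt or less were included in under 50% of reads in both libraries, against 58 of the 402 over 20 nt, of which 189 were included in over 90%.

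**Figure D4:**
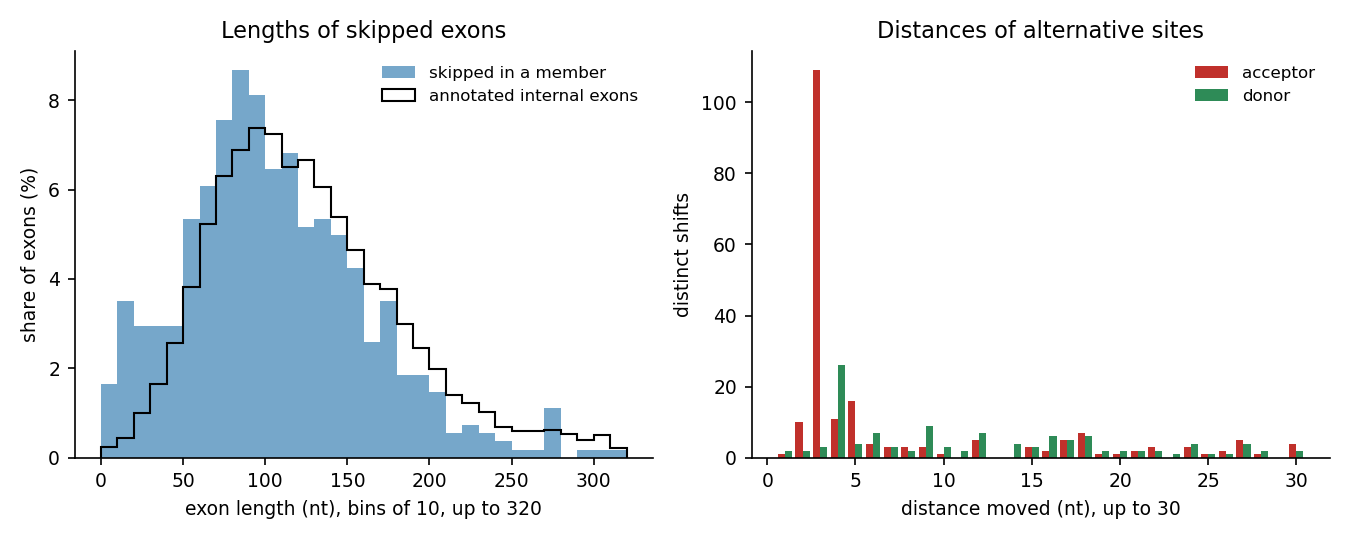
Left, lengths of exons skipped in a member (blue, percent of 542 exons) and of annotated internal exons of the same genes (black line, percent of 18034) in bins of 10 nt up to 320 nt; right, number of distinct shifts of acceptors (red) and donors (green) by the distance moved, up to 30 nt. The acceptor shifts peak at 3 nt with 109 and the donor shifts at 4 nt with 26.

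Several regulatory and calcium genes skipped longer exons. Mbnl2, which encodes a splicing regulator, had a member without a 95-nt exon in 170 of 211 and 287 of 382 reads, or 80.6% and 75.1%. That exon, at chr14:120404638-120404732 (+), was included in 8.87% and 12.3% of spanning reads, and its loss moved the predicted stop codon later, to a protein of 361 residues. Its bases, in capitals between coding flanks of the reference, are these.
Mbnl2: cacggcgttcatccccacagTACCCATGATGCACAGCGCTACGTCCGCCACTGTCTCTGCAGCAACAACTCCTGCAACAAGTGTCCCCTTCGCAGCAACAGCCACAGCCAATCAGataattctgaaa
Camk2d, a calcium- and calmodulin-dependent kinase gene, had a member without a 42-nt exon in 20 of 45 and 31 of 66 reads. The exon was included in 31.1% and 32.2% of spanning reads. In Camk2g, of the same kinase family, a member lacked a 69-nt exon in 9 and 7 reads. Over all models that exon was included in 60.2% and 70.5% of spanning reads. A Camk2b member lacked a 75-nt exon and moved an acceptor by 3 nt in 2 and 10 reads. The 75-nt exon was included in 84.8% and 77.3%. Mbnl1, a splicing regulator gene of the same family as Mbnl2, had a member with an alternative first exon and without a 36-nt exon in 22 and 37 reads. That exon was included in 13.6% and 11.1% of reads. In 4833439L19Rik a member without a 107-nt exon had 226 and 349 reads, or 58.5% and 57.5% of the gene's spliced reads. Over all models that exon was included in 15.3% and 10.2% of spanning reads.

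Of the 191 members with exon inclusion, 170 had every site in M21. Rilpl1, which encodes a lysosome- and cilium-linked adaptor, had a member with its 24-nt exon in 236 of 318 and 263 of 382 reads (74.2% and 68.8%). The predicted protein kept the annotated stop codon. Dctn1, which encodes the largest subunit of the dynein partner dynactin, had a member with a 21-nt exon in 87 of 329 and 225 of 534 reads. The member's share was 26.4% (22.0 to 31.5) in replicate 1. In replicate 2 the share was 42.1%, with an upper bound of 46.4%, and the intervals did not overlap. Bin1 encodes a membrane-bending protein of the T-tubules. A member of it with a 45-nt exon had 504 of 753 and 542 of 843 reads (66.9% and 64.3%). Both sites of this exon are absent from M21. Over all models, each of the exon's 2 new junctions had a use of 99.6% and 98.9%. Acta1, the skeletal actin gene, had a member with an extra exon of 90 nt in 391 and 462 reads, only 0.573% and 0.623% of the gene. Pkm, the pyruvate kinase gene, had a member with an extra 184-nt exon in 16 and 18 reads, or 0.297% and 0.337%.

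Among alternative sites, acceptors moved by 3 nt stood out. Distinct acceptor shifts numbered 315 with a median of 9 nt, and 109 (34.6%) were of exactly 3 nt. Of donor shifts there were 274 with a median of 48 nt, and 26 were of 4 nt. In 106 of 106 acceptor shifts of 3 nt with known bases, the bases between the sites ended in AG, the pair of letters that ends nearly every intron, searched on the sense strand only. By comparison 5.92% of annotated internal exons of the same genes had AG as the last pair of their first 3 bases. In 10 of 14 donor shifts of 4 nt with known bases the bases began with GT, against 1.63% of the last 4 bases of annotated exons. Since a splice site of the usual kind needs those letters, this describes the sites and is no further evidence for them. Members used the first acceptor and kept the 3 bases in 60 cases and the second in 89.

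The 3-nt shifts added up to 102 members with no other change. They held 9.30% and 10.5% of member reads, and Srl, which encodes sarcalumenin, a calcium-binding protein of the sarcoplasmic reticulum, supplied the most. The Srl member had 1490 of 2555 and 2146 of 4121 spliced reads, 58.3% (56.4 to 60.2) and 52.1% (50.5 to 53.6). It kept the bases AAG shown in the sequences, and the predicted protein had 473 residues against 472 for the reference. Ctbp1, a transcriptional corepressor gene, had a member that kept CAG in 306 of 488 and 401 of 656 reads (62.7% and 61.1%). A member of Cast, the calpain inhibitor gene, lacked its CAG in 22 of 108 and 32 of 162 reads. A member of Nfix, a transcription factor gene, did so in 5 and 7.

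Larger shifts included some that dominate their gene. Idh3b encodes a subunit of the mitochondrial NAD-dependent isocitrate dehydrogenase. Its leading member used an acceptor 289 nt away through a new junction in 444 of 496 and 632 of 736 reads, or 89.5% and 85.9%. The predicted protein of 380 residues ended at another stop codon than the annotated 384. Cops7a, a COP9 signalosome subunit gene, had a member with a donor moved by 117 nt in 125 of 189 and 168 of 228 reads. Mef2c, a muscle transcription factor gene, had a member with an acceptor moved by 96 nt in 29 and 34 reads. The move added 32 residues to the prediction (464 against 432). A member of Cacna1s, the voltage sensor of the T-tubules, moved an acceptor by 9 nt in 5 and 9 reads, under 1% of the gene. Over all models its new junction had 8 and 12 reads, a use of 1.66% and 1.43%.

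Most retention reads, but few of the retention members, came from tiny annotated gaps. The retained introns numbered 106 with a median of 318 nt, and 5 of them were of 1 or 4 nt. Members that only read through a gap of 10 nt or less were 6 of 85, yet they held 1905 of the 2331 retention reads in replicate 1 and 2128 of 2552 in replicate 2. Oaz1 and Oaz2 encode antizymes, inhibitors of polyamine synthesis that are made by a programmed ribosomal frameshift. The closest M21 transcript of each has a gap of 4 nt at this place. The Oaz1 member, which reads straight through, had 1519 of 1579 and 1670 of 1761 reads (96.2% and 94.8%). That of Oaz2 had 354 of 383 and 393 of 426 (92.4% and 92.3%). In both sequences the capitals TCCT are followed by ga, so that the last T and these bases read TGA, a stop codon. The frame predicted without a shift ended after 68 residues in Oaz1 and 32 in Oaz2.

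The retentions of longer introns had fewer reads each. Map7d1, a microtubule-associated protein gene, had a member that kept an intron of 96 nt in 40 and 39 reads (6.55% and 6.04%). Its predicted protein kept the annotated stop codon. Over all members of the gene, this intron was kept in 108 and 125 reads. Ankrd23, a stretch-responsive ankyrin-repeat gene, had a member that kept an intron of 104 nt in 34 of 1967 and 22 of 2816 reads. Introns of 81 nt in Csnk1g2, a casein kinase gene, and of 87 nt in Fxr1, an RNA-binding protein gene, were removed from within annotated exons. The Csnk1g2 member held 117 of 157 and 139 of 199 reads (74.5% and 69.8%) and the Fxr1 member 55 of 175 and 79 of 298. A member of Jph1, which ties the T-tubule to the sarcoplasmic reticulum, lost 423 nt in 28 and 38 reads through a junction with a site outside M21. Over all models that junction had 37 and 56 reads, against 0 in either library over the annotated junction that shares an end.

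Alternative first exons outnumbered alternative last exons. Members with only the former numbered 356, with 5551 and 7514 reads, and with only the latter 124, with 1471 and 1671. Ndrg2, a differentiation-linked gene of muscle and brain, had a member with a 174-nt first exon in 1177 of 2449 and 1349 of 3225 reads (48.1% and 41.8%). Its protein of 371 residues was as long as that of the reference. Tmed2, a vesicle cargo receptor gene, held 428 of 458 and 585 of 621 reads in a chain with a 347-nt first exon. Mpc1, a subunit of the mitochondrial pyruvate carrier, held 274 of 287 and 468 of 483 through a new junction. That junction ends at the same base as an annotated gap of 4 nt, and annotated 4-nt exons of Mpc1 were in 0 spanning reads. Eno3, the muscle enolase gene, had a member with a 78-nt first exon in 178 and 256 reads, 1.99% and 2.43% of the gene. Of 328 members with a single change at the first exon, 234 (71.3%) had it on the 5′ side of the coding sequence of the closest coding transcript. In Myl1, the essential light chain gene of fast fibres, the leading member ended in another last exon, in 463 of 14925 and 366 of 12102 reads.

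Reading frames were predicted by starting at the annotated start codon of the closest coding transcript. A stop codon was reached in 1597 members, and in 1096 of them (68.6%; 66.3 to 70.9) it was the annotated one. An earlier stop was met in 395 (24.7%; 22.7 to 26.9). Of 8485 single-read chains, 47.0% (45.9 to 48.1) ended at the annotated stop and 45.9% earlier. A further 410 members and 5680 single-read chains could not be read, so the shares cover unequal parts of the sets. In 332 members (20.8%) the stop was another than the annotated one and lay over 50 nt before the last junction, a position that often marks a message for nonsense-mediated decay, against 42.5% of single-read chains. By kind the annotated stop was kept in 78.7% of alternative first or last exons, 74.2% of alternative sites and 62.9% of skips. Among retentions it was kept in 13.3% of the 45 that could be read, with 40 unread. These counts include the Tnni2 and Tnni1 members, with predicted products of 15 and 16 residues, and the antizymes.

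Among 4298 genes that reached 20 reads in both, 22.7% had at least 1 member, and the share rose with depth, from 19.1% at 20 to 99 reads in the shallower library through 30.3% below 1000 to 53.8% at 1000 or more. In all, 1254 genes had a member, and 1983 of the 2007 members belong to protein-coding genes. Genes of contraction and calcium handling, whose lists had median depths of 239 to 705 reads and so compare with the 30.3%, had members in 10 of 19 thin filament and troponin genes, 12 of 23 Z-disc genes, 13 of 28 calcium genes and 6 of 14 thick filament genes. Glycolysis had 11 of 22, oxidative phosphorylation 12 of 35, the TCA cycle and fatty acid oxidation 10 of 30, and splicing factors 12 of 24 although their median depth was 46.5 reads. Ribosomal protein genes were low with 2 of 45, translation factors had 3 of 21, the proteasome and ubiquitin ligase list 2 of 25 and collagens and matrix 0 of 11. The lists differ in depth and in number of exons, and no list was tested.

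Within these lists the reads lay with few genes. Thin filament members held 5349 and 4023 reads, mostly those of Tnni2. Calcium genes had 68 members with 2901 and 4069 reads, and 38 of these members were of Atp2a1, the fast calcium pump gene. The Atp2a1 members had only 589 and 818 reads, or 0.361% and 0.402% of that gene. All of these reads lacked an 18-nt exon that was in 0 of 158229 and 0 of 198966 spanning reads of the gene. Myl1 had 16 members, Pde4dip 14, Mff, a mitochondrial fission factor gene, 12, and Pacsin3 11. Together the members held 51.8% and 55.3% of the spliced reads of Mff, and 72.0% and 72.0% of those of Coro6, a coronin gene with 7 members. Of 55 genes with known muscle splicing that were listed for this purpose, 36 had a member and 19, Neb, Ryr1, Dmd and Clcn1 among them, had none. Over all 4298 genes with 20 reads in both libraries the share was 22.7%, and it ran from 19.1% to 53.8% with depth. The listed genes were chosen with earlier results known and were not matched for depth or length, so neither count was tested.

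**Figure D5:**
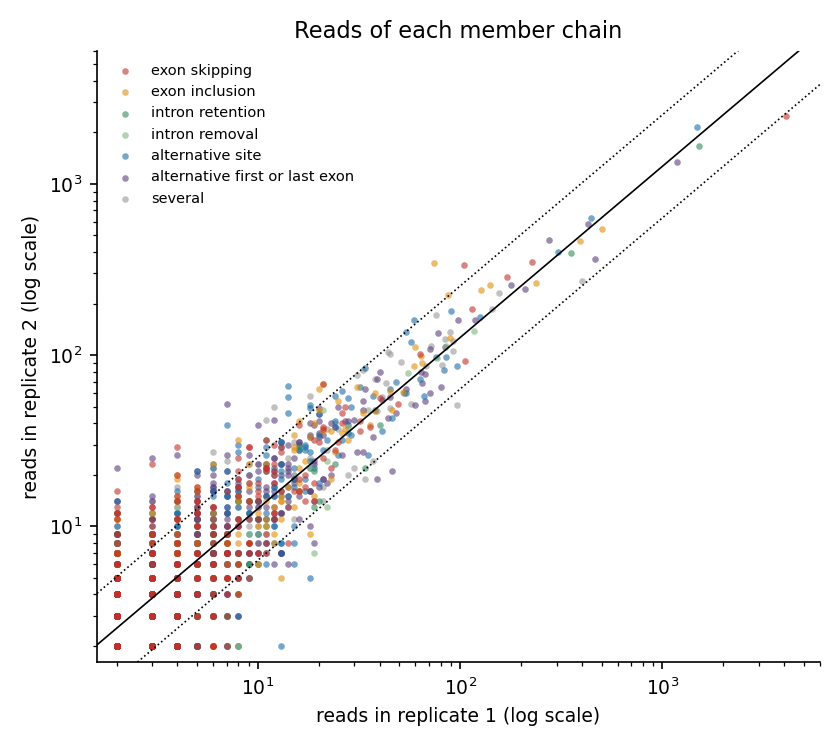
Reads of each of the 2007 member chains in replicate 1 (x axis, log scale) and replicate 2 (y axis, log scale), coloured by kind of change; the solid line marks equal CPM and the dotted lines a 2-fold difference. Points spread widely below 10 reads, and most points above 100 reads lie within the dotted lines.

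Between the libraries, 24 of 196 members with at least 50 summed reads (12.2%) differed by over 2-fold in CPM, 19 higher in replicate 2 and 5 in replicate 1. The same measure over all 3861 spliced chains of that depth found 7.1%, and over 3128 annotated transcripts 5.05%. The lean towards replicate 2 was not particular to the members. Of the 274 spliced chains so found, 221 were higher in replicate 2, as were 142 of the 158 annotated transcripts. These counts set 1 library against 1 other, without a test. The Tnni1 member, at 94.8 and 238 CPM, was 2.51-fold higher in replicate 2, but its share of the gene was 84.0% and 87.2%. The gene as a whole had 125 and 383 spliced reads, and in bulk muscle fewer slow fibres and less RNA per fibre cannot be told apart. In the same way the Tnni2 member was 2.06-fold lower in replicate 2 with shares of 65.9% and 61.5%. As a share of the own gene, 6 members were over 2-fold apart.

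Some members differed between the libraries within their gene. Mybpc1, the slow myosin-binding protein C, had a member with extra exons of 36 and 39 nt in 74 of 730 and 343 of 1948 reads, a share of 10.1% and 17.6%, with intervals that did not overlap. It holds 3 new junctions, each with at least 1 site that is not in M21. A second Mybpc1 member, without a 42-nt exon, went the other way with 106 and 92 reads, or 14.5% (12.2 to 17.3) and 4.72% (3.87 to 5.76). A minor Ndrg2 chain, with the same 174-nt first exon and 1 intron fewer, had 7 and 52 reads, or 0.286% and 1.61%. A short chain of Ttn, the giant sarcomere spring, skipped a 303-nt exon and kept a 156-nt intron in 96 of 288 and 51 of 331 reads (33.3% and 15.4%). In Trdn, which encodes triadin of the calcium release complex, a member with an acceptor moved by 42 nt had 14 and 57 reads, 1.70% and 4.13% of the gene. In Mylk4, a myosin light chain kinase gene, the share was 37.2% (29.1 to 46.1) and 69.0% (57.5 to 78.6). Over the 196 members, the Wilson intervals of the share did not overlap between the libraries in 17 (8.67%), with 6 higher in replicate 2. The same measure found 7.56% of all 3861 spliced chains of that depth and 5.05% of annotated transcripts, so the members lay near the background. In the background, 146 of 292 spliced chains and 92 of 158 annotated transcripts were higher in replicate 2.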

How the data were processed

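The authors deposited, for each of 2 libraries, a table of whole-number read counts per transcript model with its class, and the models themselves, on mm10 with GENCODE M21, per the file headers and labels. The aligner is not given in the sources used here, nor is any tool version. Counts are raw: 1182747 reads in replicate 1 and 1480977 in replicate 2, spike-ins included. Chains were matched between libraries by chromosome, strand and exact introns.

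Each chain was set against the M21 transcript of its gene with the most shared introns, and the sorter was tested on simulated data (1000 of 1000 events recovered). The simulated chains had at most a single kind of change against a given reference. None skipped a very short exon, read through a gap of a few nt or moved a site by only a few nt. Combined kinds and the choice of reference were not tried. Frames started at the start codon of the closest coding transcript; ties went to the transcript the events were called against, a rule set after values were seen. CPM used reads of annotated genes, and intervals are Wilson 95% intervals. With 1 group of 2 libraries no test was run. Python 3.11.15, pandas 2.3.3, numpy 2.4.6, scipy 1.17.1 and matplotlib 3.10.9 were used.

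The members and gene lists were chosen with earlier results of these data known. Members named were the 20 most read, the 4 most read of each kind, the most read of each of 55 listed genes, up to 10 that held 50% or more of their gene in both libraries, and up to 5 in each direction with the largest difference in share. Other read minimums, references and denominators were tried, and some were added after seeing the data.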

Additional observations from a re-analysis of the deposited data

How the results depend on the processing

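Of the values recomputed under alternatives listed at the outset, 51 moved by more than the spread or 1.5 times and 21 did not. Alternatives chosen after seeing the data are named as added; 4 values moved under them and 13 did not. With at least 1, 3, 5 and 10 reads in each library there were 4323, 1302, 793 and 383 member chains holding 2.93%, 2.50%, 2.32% and 2.05% of endogenous reads, and with 1, 5 and 10 reads they lay in 2331, 590 and 293 genes. At the same 4 minimums, exon skipping had 932, 240, 139 and 55 chains, intron retention 325, 45, 23 and 11, alternative sites 947, 321, 196 and 91, and several kinds 710, 170, 96 and 52. At 1, 5 and 10 reads, exon inclusion had 328, 90 and 55, intron removal 136, 28 and 10, and alternative first or last exons 934, 221 and 109. Without one replicate, with 2 or more reads in the other alone, there were 3296 to 4669 chains, 3.21% to 3.37% of reads and 1858 to 2402 genes. Set against the most read transcript, intron removal numbered 42 and alternative first or last exons 311; without short differences, alternative sites numbered 303. The share of reads was 2.73% without genomic reads in the denominator and 2.81% over spliced chains. Added alternatives gave 2.35% with every site in M21, 2.19% without a lone skipped exon of 20 nt or less or gap of 10 nt or less, 156 chains of several kinds and a median new junction use of 5.16% against 6.27% with every site in M21. Another added setting, ties to the most read coding transcript, gave 67.8% ending at the annotated stop and 26.6% earlier. Members over 2-fold apart numbered 94 at 20 summed reads, 7 at 100 and 6 by share of their own gene. The median share of the gene, 27.1% as a mean of the libraries, was 26.1% with genomic reads and 47.9% over annotated transcripts and members. The causes were not tested. No paired analysis was possible because both libraries belong to 1 group. At a median of 4 and 6 reads, most single members cannot be compared between the libraries.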
